A study of Mus musculus with 4 samples.

Results

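Has1, Has2, Has3, Hyal1, Hyal2, Cemip, Cd44, Tnfaip6 and Vcan are 9 genes of the making, binding and breakdown of hyaluronan, taken by name from 35580 genes. Their expression was measured by RNA sequencing in cells of the stromal vascular fraction, the cells of fat tissue other than adipocytes, from subcutaneous adipose tissue of wild-type C57BL/6 mice. The fraction had been divided into Mmp3-positive and Mmp3-negative cells, Mmp3 being the gene of the matrix metalloproteinase stromelysin-1, and each group had 2 libraries, numbered 1 and 2 in the labels after the set they belonged to. Age, sex and the way in which cells were separated, other than a reagent code, are not given in the sources used here. All 4 libraries were made from total RNA isolated with a kit for fixed, embedded tissue, with removal of ribosomal RNA. Whether the 2 libraries of a group stem from different animals is not in the labels, and p-values cover the spread between these libraries alone, which may be technical.

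Hyaluronan is a long, unbranched sugar polymer of the extracellular matrix. It is spun out of the cell by synthases of the plasma membrane, which draw on nucleotide sugars from the cytosol, and it is cut by hyaluronidases at the cell surface and in lysosomes. In loose connective tissue and fat it holds water, carries signals through receptors such as CD44, and is bundled with the proteoglycan versican and with protein chains that TSG-6 transfers to it.

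The libraries held between 17693755 and 20286221 estimated counts each, and 12697 to 14382 genes had at least 10 counts. A count of 3, taken as the limit that a count of 0 allows, was 0.153 to 0.173 CPM, that is counts scaled to a common library size, in these libraries, for counting error only. The CPM values used TMM, a correction for differences in library composition, and levels of different genes are set side by side only as TPM, the transcript abundance per length that kallisto gives. Mmp3 itself stood at 106 and 131 CPM in the Mmp3-negative and at 4161 and 3409 CPM in the Mmp3-positive libraries, a 32.0-fold difference that checks the labels (edgeR adjusted p = 0.00793). The stromal fibroblast markers summed to between 11927 and 20435 CPM in each library and adipocyte markers to between 9.06 and 20.8 CPM.

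A pair of sequences is shown, an exon and a stretch before a gene that are described below. The first is the alternative exon of Cd44 whose share set the libraries of set 1 apart from those of set 2, at chr2:102831330-102831536 (GRCm38, minus strand). It is exon 6 of 10 in the transcript Cd44-206, is 207 bases long and so keeps the reading frame, and was present in all 7 of 9 annotated Cd44 transcripts that hold any exon beyond the standard form. It is given in capitals, with the 30 transcript bases before and after it in lower case. The second lies before Hyal1, the member with the widest gap between the groups, at chr9:107576700-107576926 (plus strand, RefSeq, GRCm38.p6), and capitals mark motif matches.
Cd44-206 exon 6: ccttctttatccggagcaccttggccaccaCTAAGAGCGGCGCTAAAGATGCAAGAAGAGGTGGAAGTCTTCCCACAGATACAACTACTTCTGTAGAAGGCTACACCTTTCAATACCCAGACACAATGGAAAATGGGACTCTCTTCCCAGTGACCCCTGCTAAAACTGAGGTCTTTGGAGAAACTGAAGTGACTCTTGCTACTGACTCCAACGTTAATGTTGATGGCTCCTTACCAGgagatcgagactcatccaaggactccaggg
Hyal1 upstream: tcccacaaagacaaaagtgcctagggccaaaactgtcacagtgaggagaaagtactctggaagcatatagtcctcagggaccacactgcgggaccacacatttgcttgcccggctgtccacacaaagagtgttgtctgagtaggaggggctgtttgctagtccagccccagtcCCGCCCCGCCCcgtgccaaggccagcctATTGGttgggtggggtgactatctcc

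None of the 9 genes passed the test for a difference between Mmp3-positive and Mmp3-negative cells. All 9 were among the 14185 genes tested with edgeR's quasi-likelihood test, 0 were called higher and 0 lower, and their adjusted p ranged from 0.491 to 0.999 (Benjamini-Hochberg over all genes tested, threshold 0.05). The test called 0.00705% of all genes higher (1 gene, Mmp3) and 0.0141% lower (2 genes), so 0 of 9 is also what the background would give. At an unadjusted p under 0.05 there were 2 members, Hyal1 and Vcan, and 1258 of all genes tested. The median log2 fold change (Mmp3-positive over Mmp3-negative throughout) was -0.13 over the 9 members and 0.02 over all genes tested.

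The 2 libraries of one group did not overlap with those of the other in 5 members. Has3 and Vcan were above in both Mmp3-positive libraries, 2 of 9 against 22.5% of all genes tested, and Hyal1, Hyal2 and Cd44 were below, 3 of 9 against 17.3%. Has1, Has2, Cemip and Tnfaip6 overlapped. With the DESeq2 Wald test, run on the same counts, Vcan was called higher (log2 fold change 0.35, adjusted p = 0.0466) and Hyal1 lower (-5.63, adjusted p = 0.00184), where this test called 3.04% of genes higher and 3.62% lower. Neither call was made by DESeq2 with a mean dispersion trend, an alternative added after the data were seen (adjusted p = 0.561 and 0.180).

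**Figure D1:**
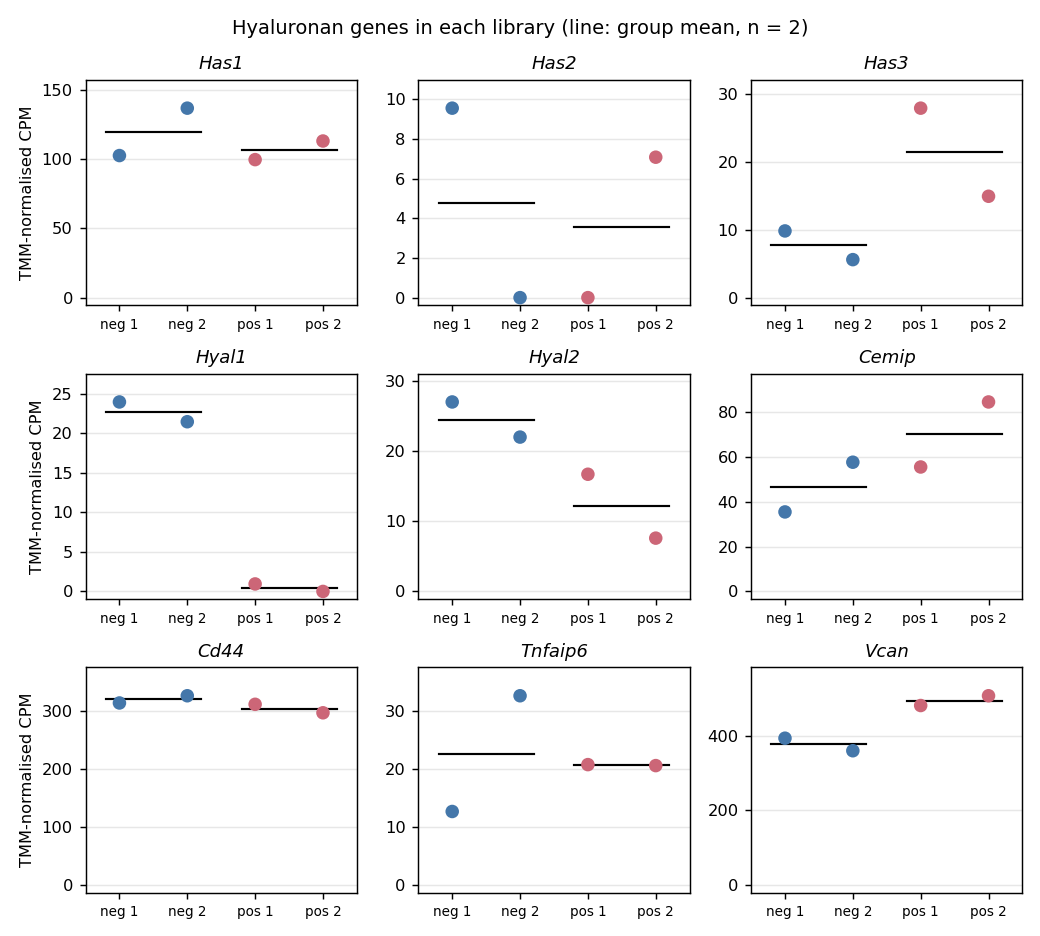
TMM-normalised CPM of the 9 hyaluronan genes in each library (points; neg, Mmp3-negative; pos, Mmp3-positive), with the mean of each group as a line (n = 2); each panel has its own linear axis from 0. Hyal1 stood at 21.4 to 23.9 CPM in the Mmp3-negative and at 0 to 0.947 CPM in the Mmp3-positive libraries, while the Has1 and Tnfaip6 values of the groups overlapped.

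Per length, Cd44 had the highest mean level of the 9 in both groups, followed by Vcan and Has1, and the rest of the order differed between the groups. In Mmp3-negative cells the mean TPM (n = 2) was 167 for Cd44, 102 for Vcan, 61.0 for Has1, 59.0 for Hyal2, 17.1 for Tnfaip6, 14.8 for Hyal1, 10.6 for Cemip, 2.65 for Has3 and 0.881 for Has2. The libraries of neighbours in this order overlapped except for Hyal2 with Tnfaip6 and Cemip with Has3. In Mmp3-positive cells it was 181 for Cd44, 143 for Vcan, 59.7 for Has1, 20.9 for Cemip, 16.4 for Tnfaip6, 13.9 for Hyal2, 10.7 for Has3, 1.003 for Has2 and 0.525 for Hyal1. Here the libraries of neighbours overlapped except for Vcan with Has1, Has1 with Cemip, and Has3 with Has2. A receptor and a matrix proteoglycan thus held the upper end, and Has1 was the most abundant synthase.

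Has1 (chr17:17843323-17855205, minus strand, GRCm38) encodes a hyaluronan synthase and was the most abundant of the 3. It stood at 102 and 137 CPM in Mmp3-negative replicates 1 and 2 and at 99.6 and 113 CPM in Mmp3-positive replicates 1 and 2. The groups overlapped, with means of 120 ± 24.1 and 106 ± 9.51 CPM (SD, n = 2) and a log2 fold change of -0.17 (standard error 0.25, edgeR adjusted p = 0.999). Without Mmp3-negative replicate 2 the value was 0.05, so its sign was not settled by these libraries. Its protein-coding transcript Has1-201 held 94.8% and 83.7% of the Has1 TPM in the Mmp3-negative and 78.1% and 87.9% in the Mmp3-positive libraries, and the rest was in a form with a retained intron.

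Has2 (chr15:56665627-56694539, minus strand) encodes the synthase required for embryonic development, which makes long chains. It had 177 and 0 counts in the Mmp3-negative libraries and 0 and 139 counts in the Mmp3-positive libraries. Each group thus held a library with no count and a library with over 100, and the direction was set by which library was used: the log2 fold change was -0.43 with a standard error of 3.33 (edgeR adjusted p = 0.999) with values from -9.45, on leaving out Mmp3-positive replicate 2, up to 9.05, on leaving out Mmp3-negative replicate 1. Of the genes tested, 68 (0.479%) had 0 counts in one library and at least 100 in the other in both groups. No level of Has2 in either group can be given at this depth beyond these counts.

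Has3 (chr8:106870242-106884566, plus strand) encodes the third synthase, which makes shorter chains. It stood at 9.82 and 5.59 CPM in the Mmp3-negative and at 27.9 and 14.9 CPM in the Mmp3-positive libraries. The lowest Mmp3-positive value was above the highest Mmp3-negative value, and by TPM as well (3.63 and 1.66 against 6.29 and 15.1). The ratio of the means was 2.78 (7.71 ± 2.99 and 21.4 ± 9.18 CPM), with a log2 fold change of 1.47 that did not pass (standard error 0.90, edgeR adjusted p = 0.819). The counts behind it were 182, 97, 530 and 293, and they were assigned to different annotated forms in each library. Has3-201 held 100% of the Has3 TPM in Mmp3-positive replicate 1 and 0% in replicate 2, where Has3-202, a form with a shorter coding part, held 94.7%. Has3 also shares 352 exonic bases with both records of Chtf8 on the opposite strand, and whether the counting used strand is not given in the sources used here.

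Summed over the 3 synthases, the level was 43.9 and 85.1 TPM in the Mmp3-negative and 63.7 and 79.1 TPM in the Mmp3-positive libraries, so the groups overlapped. Has1 made up 87.7% and 98.1% of this sum in the Mmp3-negative and 90.1% and 78.4% in the Mmp3-positive libraries. Has3 made up 8.27% and 1.95% against 9.88% and 19.1%, and here the groups did not overlap. These shares are descriptions and were not tested.

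Hyal1 (chr9:107576927-107581710, plus strand) encodes the hyaluronidase of lysosomes and plasma, which cuts hyaluronan into small pieces. It had 444 and 372 counts in the Mmp3-negative and 18 and 0 counts in the Mmp3-positive libraries, or 23.9 and 21.4 CPM against 0.947 and 0 CPM. The groups were far apart, with means of 22.7 ± 1.77 and 0.474 ± 0.670 CPM, the Mmp3-negative mean being 47.9 times the Mmp3-positive one. The log2 fold change of -5.57 carried a standard error of 2.04 and did not pass (edgeR adjusted p = 0.491). Leaving out Mmp3-positive replicate 1, the library with the 18 counts, gave -11.72, against no count at all, and leaving out its replicate 2 gave -4.58, so the size of the fold rests on these few counts. In these bulk samples, fewer cells of a type and less RNA per cell cannot be told apart.

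The reads of Hyal1 cannot be fully told from those of its neighbours. It shares 1920 exonic bases with Naa80, an acetyltransferase gene for actin, and 159 with Hyal3, another gene of the hyaluronidase family, both on the same strand. Naa80 had 134 and 369 counts in the Mmp3-negative and 342 and 171 in the Mmp3-positive libraries, and Hyal3 had 189, 0, 16 and 81. The 3 genes summed, an alternative added after the data were seen, stood at 41.4 and 42.7 CPM against 19.8 and 12.8 CPM. The groups still did not overlap, but the ratio was 2.58 in place of 47.9, with a log2 fold change of -1.37 (standard error 0.50, edgeR adjusted p = 0.487). The Hyal1 counts of the Mmp3-negative libraries also lay in different forms: Hyal1-204 held 293 counts in replicate 1 and 0 in replicate 2, and the full-length Hyal1-201 held 5.62 and 328. These forms have 1013 and 1094 bases, respectively, that neither neighbour shares.

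Hyal2 (chr9:107567945-107572779, plus strand), a hyaluronidase anchored to the cell surface that makes the first cuts in long chains, ends 4147 bases before Hyal1. It stood at 27.0 and 22.0 CPM in the Mmp3-negative and at 16.7 and 7.59 CPM in the Mmp3-positive libraries. The groups did not overlap, with means of 24.5 ± 3.54 and 12.1 ± 6.43 CPM, a ratio of 0.496 and a log2 fold change of -1.01 (standard error 0.75, edgeR adjusted p = 0.911). By TPM the gap was wider, 62.7 and 55.2 against 12.4 and 15.5. It lay in short forms: Hyal2-204, with 544 bases, held 260 and 241 counts in the Mmp3-negative and 0 and 0 in the Mmp3-positive libraries. The full-length form Hyal2-201 held 119 and 140 against 307 and 118 counts, and these overlapped.

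Hyal1 and Hyal2 sit in a dense stretch of genes on chromosome 9, and 12 other protein-coding genes lie within 50000 bases of them, of which 11 were tested. The log2 fold change was below 0 for 9 of the 11, and for 48.9% of all genes tested. It was only -0.01 for Rassf1, -0.03 for Cyb561d2 and -0.09 for Naa80, each smaller in size than its standard error. The values of Zmynd10, Hyal3 and Ifrd2 were also smaller than their standard errors. Naa80 and Hyal3 share exons with Hyal1, so they are not separate from it. Whether the stretch differed as a whole was not tested. In 3 of the 11, Nprl2, Tusc2 and Sema3b, both Mmp3-positive libraries were below both Mmp3-negative ones. In 2, Tmem115 and Gnai2, they were above. Of all genes tested, 17.3% were below and 22.5% above. Sema3b, a secreted guidance protein, had the lowest adjusted p of the stretch, with 64.3 and 74.5 CPM in the Mmp3-negative and 34.5 and 34.2 CPM in the Mmp3-positive libraries (log2 fold change -1.02 with a standard error of 0.31, edgeR adjusted p = 0.480).

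**Figure D2:**
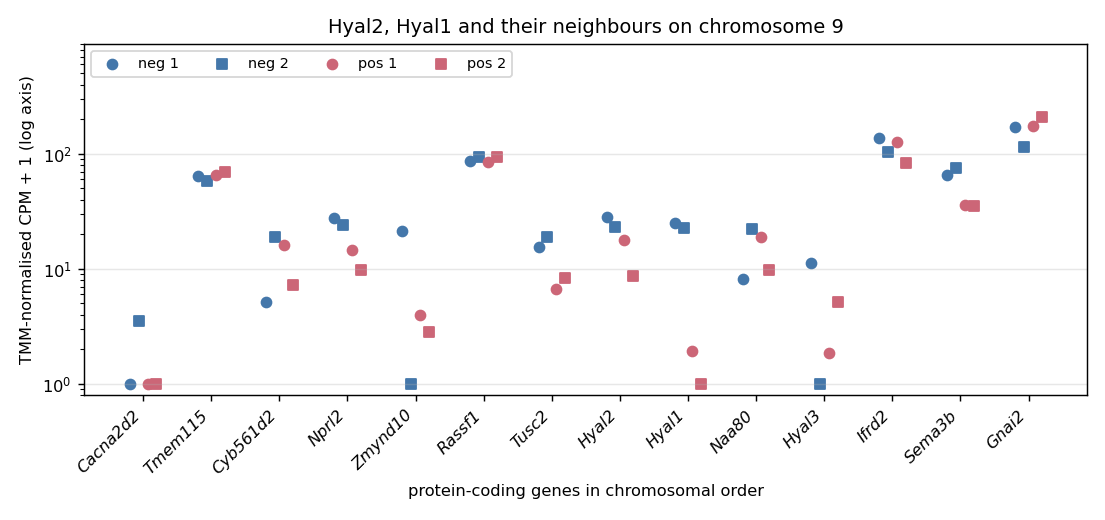
TMM-normalised CPM + 1 (log axis) of Hyal2, Hyal1 and the 12 other protein-coding genes near them in their order along chromosome 9; colour gives the group and shape the replicate. Hyal1 is the gene whose Mmp3-positive values, 0.947 and 0 CPM, lie farthest below its Mmp3-negative values, and its overlapping neighbour Naa80 has values of both groups mixed.

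Promoters were found in the RefSeq table for 7 of the 9 members. The stretch printed above for Hyal1 holds 3 motif matches, a pair of GC boxes (GGGCGG) that overlap by their end letter and a CCAAT box (CCAAT), each read on the strand opposite to the one printed. All motifs were searched on both strands. In the 250 bases before the start, a GC box was present in 5 of the 7 members (Hyal1, Hyal2, Cemip, Tnfaip6 and Vcan) and in 32.7% of 32851 promoters, and a CCAAT box in 4 of the 7 and 33.8%. An AP-1 site (TGANTCA) was in 1 of 7, Tnfaip6, and 6.75% of all promoters, a cAMP element (TGACGTCA) in 1, Has1, and 1.55%, a TATA box (TATAAA) in 1, Cemip, and 12.4%, and the heat shock motif GAANNTTC in 0 and 6.69%. A match is a run of letters, not a measured site.

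Cemip (chr7:83932857-84086502, minus strand) encodes a secreted protein that binds hyaluronan and is needed for its breakdown by fibroblasts of the skin. It stood at 35.4 and 57.6 CPM in the Mmp3-negative and at 55.5 and 84.5 CPM in the Mmp3-positive libraries. The groups overlapped, since Mmp3-negative replicate 2 was above Mmp3-positive replicate 1, and the log2 fold change was 0.59 (standard error 0.39, edgeR adjusted p = 0.872). It was 0.25 without Mmp3-positive replicate 2, 0.28 without Mmp3-negative replicate 1 and 0.98 without Mmp3-negative replicate 2. The 29-exon coding form Cemip-201 held 59.9% and 31.4% of the Cemip TPM against 56.7% and 14.6%, and the other 4 annotated forms all have a retained intron. The counts of Cemip-201 alone were 555 and 455 against 781 and 487, which overlapped as well.

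Cd44 (chr2:102811141-102901665, minus strand) encodes the main cell surface receptor for hyaluronan. It stood at 313 and 326 CPM in the Mmp3-negative and at 311 and 297 CPM in the Mmp3-positive libraries. The means, 320 ± 8.77 and 304 ± 10.3 CPM, had a ratio of 0.951, and although the CPM of the groups did not overlap, the TPM did (135 and 198 against 211 and 151). The log2 fold change was -0.07 with a standard error of 0.16 (edgeR adjusted p = 0.999), the smallest of the 9 in size, and with limma on log2(TPM + 1) it was 0.12.

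The makeup of Cd44 differed far more than its level, and in these libraries the shares of Cd44-203 and Cd44-206 divided by set rather than by Mmp3 group. The standard 9-exon form Cd44-203 held 30.1% and 25.8% of the Cd44 TPM in the Mmp3-negative and Mmp3-positive libraries of set 1, and 56.8% and 65.1% in those of set 2. Cd44-206, which adds the exon printed above, held 52.5% and 43.1% in set 1 and 18.5% and 12.9% in set 2. All forms with that exon together held 67.5% and 68.2% in set 1 and 34.5% and 29.0% in set 2. By estimated counts in place of TPM these shares were 51.4% and 58.4% against 22.9% and 18.4%. In each measure both libraries of set 1 lay above both of set 2, while the Mmp3 groups overlapped.

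That division is a description, with no test, and how often the shares of other transcripts divide by set is not given here. What the set number stands for beyond the labels is not given in the sources used here. The annotated Cd44-206 has 1305 bases, nearly all coding, and Cd44-203 has 2848, so their TPM shares differ from their shares of counts. The 16-exon form Cd44-208 held 14.2% and 19.9% in set 1 and 15.2% and 4.84% in set 2, and it had the most exons among forms that reached 10% of the TPM in any library.

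**Figure D3:**
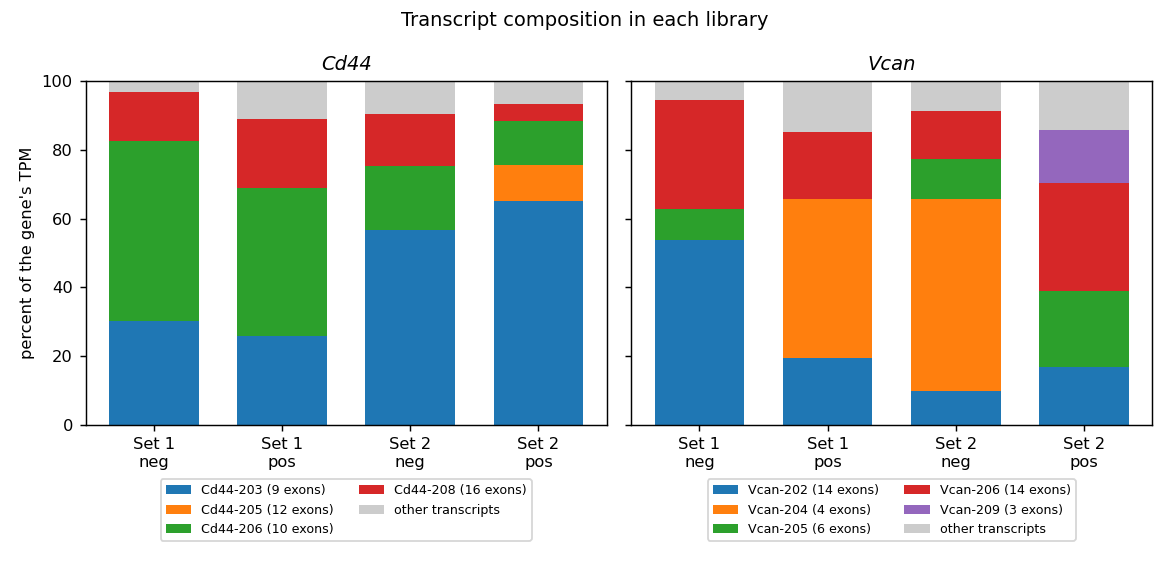
Percent of the TPM of Cd44 (left) and Vcan (right) held by each transcript that reached 10% in any library, stacked to 100 and ordered by set, with the rest in grey. For Cd44, Cd44-206 is large in both libraries of set 1 (52.5% and 43.1%) and small in both of set 2 (18.5% and 12.9%). For Vcan, the short Vcan-204 fills 55.9% and 46.2% of the bar in Mmp3-negative replicate 2 and Mmp3-positive replicate 1 and is at 0% in the other libraries.

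Tnfaip6 (chr2:52038009-52056686, plus strand) encodes TSG-6, a secreted protein induced by inflammation that moves heavy chains of inter-alpha-inhibitor onto hyaluronan. It stood at 12.7 and 32.6 CPM in the Mmp3-negative and at 20.7 and 20.6 CPM in the Mmp3-positive libraries. Both Mmp3-positive values lay between the Mmp3-negative ones. The log2 fold change was -0.13 (standard error 0.70, edgeR adjusted p = 0.999), and it was 0.71 without Mmp3-negative replicate 2. A single transcript is annotated, so no shift between forms bears on these values.

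Vcan (chr13:89655312-89742509, minus strand) encodes versican, the large proteoglycan that binds hyaluronan and carries chondroitin sulfate. It stood at 393 and 359 CPM in the Mmp3-negative and at 480 and 506 CPM in the Mmp3-positive libraries. The groups did not overlap, with means of 376 ± 23.7 and 493 ± 18.5 CPM. The ratio was 1.31 and the log2 fold change 0.39 (standard error 0.15), which edgeR did not call (adjusted p = 0.525). Leaving out any of the 4 libraries gave 0.33 to 0.45. By TPM the groups overlapped (50.2 and 155 against 164 and 122). A form of 294 bases, Vcan-204, held 55.9% of the Vcan TPM in Mmp3-negative replicate 2 and 46.2% in Mmp3-positive replicate 1, on 2.40% and 1.66% of its counts.

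Versican comes in forms that differ in which of a pair of long exons for chondroitin sulfate attachment they hold. The exon of 5217 bases (chr13:89688285-89693501) is in V0 and V1 (Vcan-203 and Vcan-206), and the forms with it held 44.3% and 71.8% of the Vcan counts in the Mmp3-negative and 68.7% and 65.1% in the Mmp3-positive libraries. The exon of 2880 bases (chr13:89702918-89705797) is in V0 and V2 (Vcan-203 and Vcan-202), and the forms with it held 50.7% and 52.6% against 55.0% and 30.9%. Both overlapped between the groups. Among the 4 libraries, Mmp3-negative replicate 1 had 0 counts for V0, against 1163 to 2422 in the rest. V3 (Vcan-201), which has neither exon, had 435 counts in Mmp3-positive replicate 2 and at most 1.08 in the rest.

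**Figure D4:**
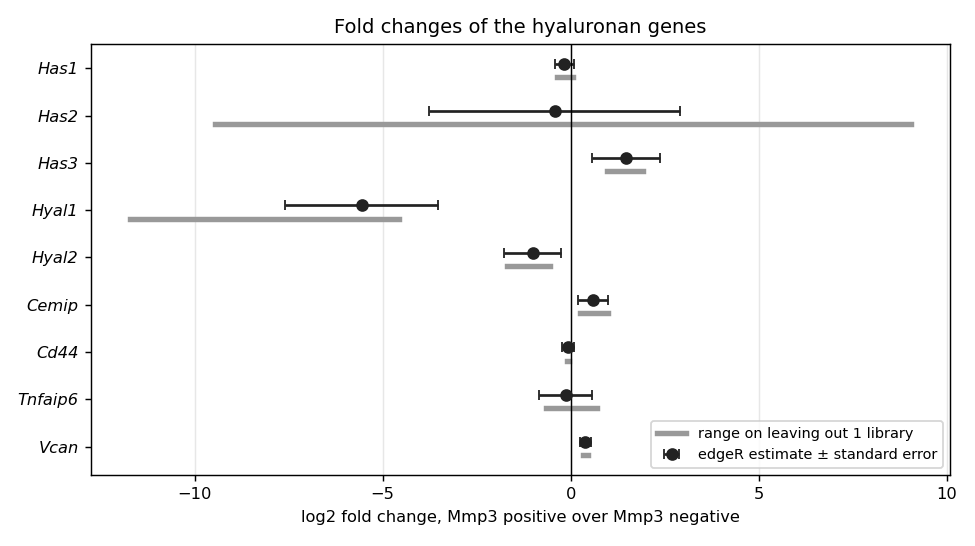
Log2 fold change of the 9 genes in Mmp3-positive over Mmp3-negative cells (points; bars, standard error of the edgeR estimate) with, below each, the range on leaving out each library in turn (grey). Only the grey ranges of Has1, Has2 and Tnfaip6 cross 0, that of Has2 from -9.45 to 9.05, and the ranges of Vcan and Cd44 are the narrowest.

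The size of the gap between the 2 libraries of a group set what could be told. Over the 9 genes the median absolute log2 difference was 0.411 between the Mmp3-negative and 0.598 between the Mmp3-positive libraries, and over all genes tested 0.729 and 0.457. The genes with the highest counts, Cd44 and Vcan, had standard errors of 0.16 and 0.15, and Hyal1 and Has2, each with at least 1 library at 0, had 2.04 and 3.33.

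The other genes of the pathway were followed in a list of 61 symbols in 6 roles. All but Tmem2, an older symbol of Cemip2, were measured, 44 were tested, and edgeR called 0 higher and 0 lower. At an unadjusted p under 0.05 there were 5, against 1258 of the 14185 genes tested. DESeq2 called 0 higher and 4 lower (Stab1, Adamts4, Adamts9 and Ezr), against 3.04% and 3.62% of all genes. With its mean dispersion trend it no longer called Stab1 (adjusted p = 0.0761), Adamts4 (0.0585) and Ezr (0.346), still called Adamts9 (4.96e-11) and called Itih3 lower (0.000249). The median log2 fold change of the 44 was -0.0016. The groups did not overlap in 8 that were above and 12 that were below in Mmp3-positive cells (22.5% and 17.3% of all genes), and 12 of the 60 were at 0 in all libraries. For each role the 3 genes with the highest TPM are the ones whose values are given, and Stab1, Adamts4, Adamts5 and Adamts9 were added after their values were seen. Where a library is left out below, the lone library of its group is assumed to vary like the other pair, and calls over all genes reached 237 higher and 116 lower.

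Precursor supply, the route to the nucleotide sugars, had 12 of 12 genes tested and a median of 0.01. Without overlap 2 were above and 3 below, against 22.5% and 17.3% of all genes. Ugdh, which makes UDP-glucuronic acid, stood at 171 and 236 CPM in the Mmp3-negative and at 276 and 275 CPM in the Mmp3-positive libraries (log2 fold change 0.44 with a standard error of 0.21, edgeR adjusted p = 0.681). The glycolytic enzymes at its entry, Gpi1 and Hk2, had log2 fold changes of -0.01 and 0.14, and their groups overlapped by CPM. By TPM those of Gpi1 did not (585.3 and 688.9 against 737 and 798.1). Of the other breakdown genes 6 of 10 were tested, with a median of 0.23. Cemip2, a hyaluronidase of the cell surface related to Cemip, had a log2 fold change of 0.35. The lysosomal enzymes Hexa and Gusb, which trim the pieces, had 0.11 and -0.05, and all of these overlapped by CPM. By TPM the groups of Cemip2 did not (9.81 and 11.44 against 21.42 and 12.69). Hyal4, Hyal5, Hyal6 and Spam1, the last known for its role on sperm, were at 0 in all 4 libraries.

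Of the other receptors and binders 8 of 15 were tested, with a median of -0.36. Without overlap 0 were above and 3 below, against 22.5% and 17.3% of all genes. Layn, a membrane receptor for hyaluronan, Habp4 and C1qbp had log2 fold changes of 0.03, -0.04 and -0.32, and their groups overlapped. Stab1, a scavenger receptor of macrophages and sinusoidal endothelium, stood at 226 and 151 CPM in the Mmp3-negative and at 66.6 and 34.5 CPM in the Mmp3-positive libraries. It did not pass with edgeR (log2 fold change -1.90, standard error 0.40, adjusted p = 0.480) and did with DESeq2 (adjusted p = 1.18e-05). On leaving out a library the edgeR adjusted p was 0.0120 without Mmp3-negative replicate 2 and 0.0585 to 0.9999 without the others. Lyve1, the receptor of lymphatic vessels, had 15.4 CPM in Mmp3-negative replicate 2 and 0 in the other libraries.

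Markers of several other kinds of cell in the fraction were lower in sum alongside Hyal1, Hyal2 and Stab1. The 8 pericyte and smooth muscle markers summed to 642 and 568 CPM in the Mmp3-negative and to 78.5 and 50.1 CPM in the Mmp3-positive libraries, with 6 of 8 below without overlap (17.3% of all genes). The 8 macrophage markers summed to 175 and 117 against 31.4 and 29.4 CPM (5 of 8 below, Adgre1 at 0 in both Mmp3-positive and Mrc1 in both Mmp3-negative libraries). The 7 endothelial markers summed to 235 and 148 against 101 and 93.9 CPM (4 of 7 below, Cldn5 at 0 in both Mmp3-positive and Emcn in both Mmp3-negative libraries), and the 6 dendritic markers to 177 and 70.3 against 11.9 and 19.9 CPM (4 of 6 below, H2-Eb1 at 0 in both Mmp3-positive libraries and Flt3 in all 4). The 4 epithelial markers summed to 7.499 and 7.323 CPM in the Mmp3-negative and to 0 CPM in both Mmp3-positive libraries. Of these, 1 was below without overlap (17.3% of all genes), and Krt18 was at 0 in all 4 libraries. The remaining lists did not go that way. The 4 lymphatic endothelial markers summed to 337 and 373 against 446 and 418 CPM, but they differed among themselves. Without overlap 1 was above and 1 below (22.5% and 17.3% of all genes), and Lyve1 was at 0 in both Mmp3-positive libraries. The adipocyte (9.06 and 20.8 against 11.5 and 9.27 CPM) and Schwann sums (21.2 and 5.88 against 8.74 and 3.16 CPM) overlapped. So did the mesothelial (8.63 and 22.6 against 9.53 and 3.87 CPM) and T and B cell sums (8.36 and 1.27 against 5.47 and 3.82 CPM). Of the 9 stromal fibroblast markers 7 were above without overlap (22.5% of all genes), as Has3 and Vcan were, but their sums overlapped, at 11927 and 17728 against 14883 and 20435 CPM. Of the 46 markers tested, over all lists, edgeR called 0 (16 at an unadjusted p under 0.05, against 1258 of 14185 genes) and DESeq2, which tested 49, called 3 higher and 12 lower, against 3.04% and 3.62% of all genes. Their part in the values of the hyaluronan genes was not tested.

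Heavy chain transfer and cross-linking, the partners of TSG-6, had 3 of 7 genes tested. Ptx3, a pentraxin that links the heavy chains of neighbouring hyaluronan strands, stood at 465 and 307 CPM against 785 and 444 CPM, which overlapped (log2 fold change 0.67 with a standard error of 0.33, edgeR adjusted p = 0.693). By TPM the groups did not overlap (226.5 and 269.4 against 600.1 and 319). The log2 fold change was 0.20 without Mmp3-positive replicate 1, 0.40 without Mmp3-negative replicate 2 and 1.02 without Mmp3-positive replicate 2. Itih5, a heavy chain gene, had 0.14. Itih3, another, had 2.21 and 1.90 CPM (41 and 33 counts) in the Mmp3-negative libraries and 0 counts in each of the Mmp3-positive libraries (edgeR adjusted p = 0.480). With 3 counts set as the floor of a library it was at least 13.2-fold lower, for counting error only. That bound leaves out the gaps between libraries of a group. Of the genes tested, 226 had 0 counts in one Mmp3-positive library and at least 100 in the other.

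Among 7 partners of CD44, all tested, the median was -0.26, with 1 above and 3 below without overlap (22.5% and 17.3% of all genes). Ezr, which ties CD44 to the actin cortex, stood at 150 and 142 CPM in the Mmp3-negative and at 90.1 and 108 CPM in the Mmp3-positive libraries (log2 fold change -0.56, standard error 0.22). It did not pass with edgeR (adjusted p = 0.525), and did with DESeq2 (adjusted p = 0.0287) but not with its mean dispersion trend (adjusted p = 0.346). Its relative Msn, moesin, had a log2 fold change of 0.04, or -0.0021 with DESeq2 size factors, and Mmp14, a membrane protease that sheds CD44, had 0.20. Their groups overlapped.

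Versican turnover and its fibre partners had 8 of 9 genes tested and a median of 0.13. Without overlap 3 were above and 2 below, against 22.5% and 17.3% of all genes. Adamts1, Adamts4, Adamts5 and Adamts9 encode proteases that cut versican. Of these Adamts1 had the highest TPM, and its groups overlapped (log2 fold change 0.09). Adamts5 stood at 760 and 832 CPM in the Mmp3-negative and at 972 and 976 CPM in the Mmp3-positive libraries (0.29, edgeR adjusted p = 0.666). Adamts4 stood at 121 and 134 CPM in the Mmp3-negative and at 29.3 and 8.25 CPM in the Mmp3-positive libraries (-2.77, edgeR adjusted p = 0.480, DESeq2 adjusted p = 1.47e-05). On leaving out a library the edgeR adjusted p of Adamts4 was 0.0279 and 0.0373 without Mmp3-negative replicates 1 and 2, and 0.0934 and 0.844 without Mmp3-positive replicates 1 and 2. Adamts9 stood at 75.6 and 79.0 against 24.8 and 25.6 CPM (-1.62, edgeR adjusted p = 0.480, DESeq2 adjusted p = 7.40e-09). Of the fibre proteins that versican binds, Fbln2, fibulin-2, stood at 1754 and 2485 against 2688 and 3186 CPM (0.47, edgeR adjusted p = 0.612). On leaving out a library its adjusted p was 0.0263 without Mmp3-negative replicate 2 and 0.419 to 0.9999 without the others. Fbn1, fibrillin-1, had 0.23.

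**Figure D5:**
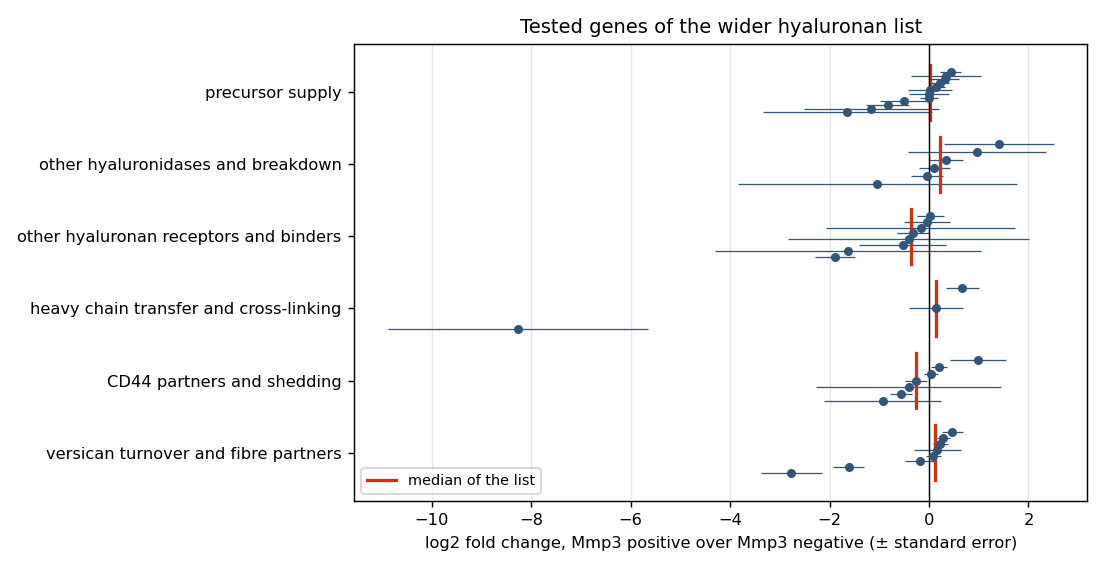
Log2 fold change in Mmp3-positive over Mmp3-negative cells of the 44 tested genes of the wider list by role (points; lines, standard error of the edgeR estimate), with the median of each role as a red bar. Medians lie between -0.36 and 0.23, and the point at the far left is Itih3, whose fitted value has no count in either Mmp3-positive library behind it.

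For the 2 members with the smallest unadjusted p, the protein-coding genes with the most similar profile over the 4 libraries were looked up among 8925 genes, by the root mean square distance of centred log2(CPM + 1) values. For Hyal1 they were Lama5, a laminin chain of basement membranes (distance 0.187), the chloride channel Ano1 (0.315) and the muscle protein Myom1 (0.316). Lama5 stood at 194 and 212 CPM in the Mmp3-negative and at 15.5 and 5.65 CPM in the Mmp3-positive libraries. For Vcan they were Actr2, a subunit of an actin nucleator (0.0236), Tgfbr3, a co-receptor for transforming growth factor beta (0.0245), and Atg16l2 (0.0293). Tgfbr3 stood at 549 and 501 against 675 and 682 CPM. The edgeR adjusted p of these 6 lay between 0.255 and 0.986, and the likeness is a description over 4 libraries.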

How the data were processed

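RNA was sequenced in 2 libraries of Mmp3-negative and 2 of Mmp3-positive cells, 17693755 to 20286221 estimated counts each. Per the submitters' processing notes the authors used kallisto 0.45.0 and GRCm38. The deposited tables give estimated counts, TPM and effective lengths for 115270 transcripts, per the file headers. Transcript index, strand setting and trimming are not given in the sources used here, and kallisto divides reads among similar transcripts, so forms and overlapping genes are uncertain.

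Of the transcripts, 113580 matched GENCODE M21 by identifier without version. The 1690 others, 0.729% to 2.08% of the counts, were left out. Values were summed per gene and counts rounded. Genes kept by filterByExpr (minimum count 10) were scaled by TMM and tested with edgeR 4.0.16 (R 4.3.3), quasi-likelihood, two-sided, no covariate, 2 residual degrees of freedom, with Benjamini-Hochberg adjustment over 14185 genes. A standard error is the log2 fold change divided by the square root of F. Alternatives used DESeq2 1.42.0 on all genes with a count, where DESeq2 replaced its parametric dispersion trend by a local one, and limma 3.58.1 on log2(TPM + 1). The scripts were tested on simulated data. Python 3.11.15, pandas 2.3.3 and matplotlib 3.10.9 were used.

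The members and lists were chosen with earlier results of these data known. Named genes were the members, Mmp3 and, in each role of the wider list, the 3 with the highest TPM or any past the threshold. Transcripts were named at 10% of a gene's TPM in any library, and for the 2 members with the smallest p the 3 genes nearest in profile (mean CPM of at least 10, pseudocount 1). Vcan-201, Vcan-203, Lyve1, Adamts5, Sema3b and other neighbours were named after their values were seen.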

Additional observations from a re-analysis of the deposited data

Results flagged for a closer look

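In Mmp3-negative replicate 1, 2.08% of the estimated counts lay in transcripts that matched no gene and so took no part in any comparison. This is above 1.61e-05%, the share that 3 counts, the limit that a count of 0 allows, would have there. The share was also above that limit in the remaining 3 libraries, at 0.729% for Mmp3-negative replicate 2, 0.809% for Mmp3-positive replicate 1 and 0.995% for Mmp3-positive replicate 2. Transcripts were assigned to the 9 hyaluronan genes by this match, so unmatched transcripts of these genes, if any, would not be seen.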

How the results depend on the processing

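Precision is limited by 2 libraries a group and by counts under 600 for Has2, Has3, Hyal1, Hyal2 and Tnfaip6. Of 394 recomputed log2 fold changes of 32 genes, 344 kept their direction and side of the threshold, 12 passed it, 1 lost it and 37 turned direction, and the cause was not tested. Over all genes, the count filter's absence gave 4 higher and 23 lower genes, the DESeq2 Wald test 447 and 532, and its mean dispersion trend 713 and 514. The offset for transcript length gave 1 higher and 0 lower, limma on log2(TPM + 1) gave 0 of either kind, and leaving out a library, which tests more genes, gave 1 to 237 higher and 1 to 116 lower. Members called numbered 1 higher and 1 lower with DESeq2, and 0 in the other settings. The 1 that lost the threshold was Mmp3 with limma on log2(TPM + 1) (log2 fold change 5.27, limma adjusted p = 0.545). Since that setting did not call Mmp3, its 0 calls do not show that other genes did not differ. The replicate block, by set number, gave 1 higher and 4 lower genes over all, with Tnfaip6 at 0.022 and Habp4 at 0.0034. The correlation of same-numbered deviations was 0.0261 over 2 pairs, too few to show whether the sets pair the samples.

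The all-gene median, 0.02, was 0.29 under limma with log2(TPM + 1) and 0.37 with log2(TPM + 0.1). With these, Has1 was 0.072 and 0.074, Has2 0.061 and 0.089, Cd44 0.12 and 0.12, and Tnfaip6 0.27 and 0.31, and with the former Gpi1 was 0.27, Gusb 0.036 and Habp4 0.79. With the length offset Gpi1 was 0.0043 and Habp4 0.39. With DESeq2 size factors, the Wald test and the mean trend, Layn was -0.018, -0.018 and -0.018 and Msn -0.0021, -0.0017 and -0.0017. Leaving out each library gave -0.37 to 0.054 for Has1, -9.45 to 9.05 for Has2, -11.72 to -4.58 for Hyal1, -0.66 to 0.71 for Tnfaip6, -0.20 to 0.16 for Gpi1, -0.038 to 0.30 for Hk2, -0.19 to 0.48 for Hexa, -0.18 to 0.09 for Gusb, -0.22 to 0.32 for Layn, -0.42 to 0.48 for Habp4, -0.24 to 0.43 for Itih5 and -0.035 to 0.12 for Msn. Of 106 transcript shares, 25 moved beyond the spread between replicates by counts in place of TPM.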
